A study of Mus musculus with 4 samples.

Results

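Lhx8, Gbx1, Gbx2, Zic1, Zic4 and Etv1, 6 transcription factor genes of the ventral forebrain, were examined across the neurons and progenitors of the embryonic mouse medial ganglionic eminence (MGE). They were taken by symbol from the 32285 genes of the matrices and followed in cells with at least 3000 unique molecular identifiers (UMIs) and at most 10% mitochondrial UMIs. They had been chosen by their measured levels across the cell types of these libraries, so these levels are given as a description and were not tested. The MGE is a proliferative zone of the ventral telencephalon. Droplet-based single-cell RNA sequencing was performed on MGE of e14.5 embryos, giving 2 libraries of the St18 (−/−) genotype, referred to as null, and 2 of WT. The comparison asks whether loss of St18, a zinc finger transcription factor of the Myt1 family, changes the neurons that the MGE holds and the genes that they express. Null embryos carried the deletion in the whole animal, from a floxed St18 allele recombined by the germline driver E2a-Cre. Null and WT embryos were litters of heterozygous breeders, whose background mixed C57/BL6 with ICR. MGE tissue was pooled by genotype before dissociation, and the number and sex of embryos in a pool were not stated, so p-values measure the spread between 2 pools of each genotype.

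Lhx8 encodes a LIM homeodomain protein that works with Nkx2-1, the regional determinant of the MGE, and with Isl1 in the specification of cholinergic neurons of the basal forebrain and striatum. Gbx1 and Gbx2 encode paired relatives of the gastrulation brain homeobox family. Gbx2 is best known for positioning the midbrain-hindbrain boundary and for thalamic development, and both genes have been used as markers of ventral telencephalic neurons. Zic1 and Zic4 encode zinc finger proteins of the Zic family and lie beside each other as a head-to-head gene pair. Etv1 encodes an ETS domain factor that in many tissues responds to fibroblast growth factor signalling. LIM homeodomain proteins bind the cofactors Ldb1 and Ldb2, and the Lmo proteins compete for this contact.

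In GRCm38 (GENCODE M21), Lhx8 (ENSMUSG00000096225) spans chr3:154306294-154330659 on the minus strand and Gbx1 (ENSMUSG00000067724) spans chr5:24502757-24527202 on the minus strand. Gbx2 (ENSMUSG00000034486) spans chr1:89927956-89931179 on the minus strand. Zic1 (ENSMUSG00000032368) spans chr9:91358058-91365810 on the minus strand, and Zic4 (ENSMUSG00000036972) spans chr9:91362413-91389348 on the plus strand. Etv1 (ENSMUSG00000004151) spans chr12:38779380-38870484 on the plus strand. For 3 members, the gene with the most similar profile over the clusters turned out to be a neighbour on the opposite strand. The processed transcript AI606473 starts 161 bases from the start of Lhx8 and runs away from it. The processed transcript D130058E05Rik overlaps Gbx2 by 946 bases. Zic1 and Zic4 overlap each other by 3398 bases. Whether the authors' counting used strand was not given in the sources used here, so reads from the overlapping stretches of Gbx2 with D130058E05Rik and of Zic1 with Zic4 cannot be assigned with certainty.

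The stretch before the first exon is shown for these 3 members, since each lies where the member and its neighbour meet. The sequences are from the RefSeq promoter table (GRCm38.p6), read 5′ to 3′ on the minus strand, from chr3:154330660-154330810 for Lhx8, chr1:89931180-89931426 for Gbx2 and chr9:91365811-91366018 for Zic1. Capitals mark 2 matches found in the Gbx2 stretch, AAGTTT, a core bound by Myt1 family proteins, and CAGCTG, an E-box.
Lhx8 upstream: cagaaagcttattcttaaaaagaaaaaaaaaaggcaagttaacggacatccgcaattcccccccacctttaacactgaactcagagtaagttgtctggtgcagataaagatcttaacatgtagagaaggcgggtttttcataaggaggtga
Gbx2 upstream: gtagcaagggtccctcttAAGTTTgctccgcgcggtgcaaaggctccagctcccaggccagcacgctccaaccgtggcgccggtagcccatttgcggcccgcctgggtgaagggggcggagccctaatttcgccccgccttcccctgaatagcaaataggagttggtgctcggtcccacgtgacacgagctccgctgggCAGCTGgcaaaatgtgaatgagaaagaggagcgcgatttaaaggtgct
Zic1 upstream: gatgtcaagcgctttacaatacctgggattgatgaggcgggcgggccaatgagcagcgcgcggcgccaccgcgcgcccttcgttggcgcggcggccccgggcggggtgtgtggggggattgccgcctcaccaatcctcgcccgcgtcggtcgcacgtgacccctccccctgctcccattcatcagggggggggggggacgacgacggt
The Lhx8 stretch of 151 bases was 39.7% G and C and filled most of the gap to AI606473. The Gbx2 stretch of 247 bases, 61.1% G and C, lies in an exon of D130058E05Rik. The Zic1 stretch of 208 bases, 71.2% G and C, lies in an intron of Zic4. On both strands, 5 motifs were searched, namely the Myt1 family core AAGTTT, the E-box CAGCTG, the homeodomain core TAATTA, the ETS core CCGGAA and the NK2 core CAAGTG. Over the same stretch, AAGTTT was present in 12.6% and CAGCTG in 12.9% of 32817 RefSeq promoters, and none of the 5 was found in the Lhx8 or Zic1 stretch.

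The libraries labelled null held 92984713 and 89094919 UMIs (replicates 1 and 2) and those labelled WT held 72640295 and 70991150. After doublets were removed, 6279, 3758, 4348 and 3882 cells remained, in the order null replicate 1, null replicate 2, WT replicate 1, WT replicate 2, which all lists of 4 values follow. They included 3322, 2129, 2429 and 2222 neurons and 2873, 1564, 1856 and 1588 progenitors. Any pair of libraries shared 4 to 11 cell barcodes, at most 0.284% of the smaller library. St18, the targeted gene, was at 25.2, 74.9, 44.1 and 59.3 counts per 1000000 UMIs (CPM) in neurons, so the library labelled null replicate 2 lay above both WT libraries. Per the study's methods the deletion takes out a pair of exons inside St18 and shifts the reading frame, and the counts are per gene, so they do not tell transcripts with these exons from those without. Female neurons of the library labelled null replicate 2 held 94.9 CPM of St18 (at least 3 Xist UMIs and none of 4 Y-linked genes), against 29.9 CPM in its male neurons. In that labelled null replicate 1 it was at 22.7 CPM in female and 29.6 CPM in male neurons, so the high St18 lay in the female cells of 1 pool. Whether that pool held embryos of another genotype was not tested. Cells with at least 3 Xist UMIs made up 35.3% and 64.9% of the libraries labelled null and 0% of both labelled WT, so sex and genotype are mixed in every comparison of null with WT. Libraries are therefore named by their labels throughout.

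Clusters were made with the 6 members and their Zic and Etv relatives left out of the variable genes. They gave 22 neuron clusters (N0 to N21) and 17 progenitor clusters (P0 to P16), described by their leading genes other than the members. Lhx8 and Zic1 were themselves among the leading genes of N4 and N9, Gbx1 among those of N10 and N13, and Zic4 and Gbx2 among those of N20. The neuron clusters that mattered for the members were N4 (786 cells, led by Shh, Kitl and AI606473), N9 (456 cells, led by Lypd6, Pde1a and Lypd6b), N10 (391 cells, led by Dab1, Nrp2 and Adarb2), N11 (365 cells, led by Peg10, Calb1 and Samd5), N13 (337 cells, led by Kctd8, Adarb2 and Pde1a), N20 (74 cells) and N5 (589 cells). N20 was led by Slc10a4 and by Slc18a3, the vesicular acetylcholine transporter, and 4 pallidal and cholinergic markers gave it the name pallidal cholinergic-like. N20 held 14, 8, 19 and 33 cells, so its levels rest on few cells of each pool. N5 met the marker rule for a CGE-like cluster, from Htr3a and Nr2f2 among others, but also held Nkx2-1 at 446 CPM and Lhx6, the MGE postmitotic factor, at 576 CPM, and is called by its number.

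Lhx8 was spread over several neuron clusters. It was highest in N4, at 821, 850, 753 and 735 CPM, with little spread between libraries. In N9 it was at 714, 661, 791 and 659 CPM, and in N20 at 661, 426, 725 and 848 CPM. The ranges of N9 and N20 overlapped that of N4, so these 3 do not differ beyond their spread. N13 followed at 587, 580, 633 and 656 CPM, below every N4 library. N10 held 348, 289, 478 and 424 CPM. At the other end, N14 had a mean of 14.1 CPM. Among progenitor clusters the highest mean was in P12 (325 CPM), a cluster led by Npy and St18. The 6 clusters with the largest shares of Lhx8 UMIs, N4, N9, P0, N13, N0 and N2, held 54.1% of these UMIs and 27.3% of the cells.

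Gbx1 and Gbx2 were restricted to fewer cells. Gbx1 was at 173, 161, 165 and 141 CPM in N10 and at 146, 142, 172 and 152 CPM in N13, and these levels overlapped. Which of them came first changed with the averaging, since a mean over cells put N13 (161 CPM) before N10 (158 CPM). N9 came next at 45.8, 95.4, 68.9 and 54.9 CPM, followed by N11 at a mean of 35.2 CPM. N10 and N13 held 56.6% of all Gbx1 UMIs in 4.23% of the cells. Gbx1 was near 0 in N20, at 10.7, 0, 0 and 9.27 CPM. Gbx2 had another order. It was at 139, 246, 359 and 199 CPM in N20, from 124 UMIs in all. N11, at 52.1, 66.1, 61.8 and 78.0 CPM, and N10, at 50.8, 67.9, 76.4 and 55.7 CPM, overlapped each other and lay below every N20 library. N13, where Gbx1 was high, held Gbx2 at a mean of 15.3 CPM. The clusters N11, N10 and N20 held 64.2% of Gbx2 UMIs in 4.77% of the cells.

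Zic1 and Zic4 were both highest in the cholinergic-like cluster. Zic1 was at 1694, 1393, 1409 and 1627 CPM in N20, above any other cluster in every library. N13 held 617, 627, 428 and 605 CPM, N4 held 407, 491, 246 and 341 CPM, and N9 held 378, 356, 331 and 338 CPM, so the range of N4 overlapped those of N13 and N9, which did not overlap each other. Zic4 was at 490, 328, 366 and 468 CPM in N20 and at 97.2, 86.3, 53.2 and 99.7 CPM in N13. In N4, where Zic1 was also high, Zic4 was at 41.4, 25.7, 10.3 and 29.8 CPM. The pallial-like cluster N21 held Zic1 at a mean of 231 CPM and Zic4 at 40.6 CPM, and N17 held them at 229 and 40.2 CPM. The cluster N20 made up 0.438% of the cells and held 21.5% of Zic4 UMIs but 8.87% of Zic1 UMIs. Zic2 and Zic5, also left out of the clustering, were present in N20 at means of 141 and 34.5 CPM.

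Etv1 followed another pattern and was the member least tied to a few clusters. It was highest in N5, at 339, 414, 491 and 343 CPM, and in N13 at 237, 279, 281 and 317 CPM, below every N5 library. In N20 it ranged from 107 to 361 CPM, which overlapped both. N0 had a mean of 158 CPM and N4 a mean of 147 CPM. The progenitor cluster P14, led by Prdm13 and Helt, had a mean of 208 CPM. The 7 clusters that held 53.9% of Etv1 UMIs contained 34.7% of the cells. The heat map of levels by cluster shows these patterns side by side.

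**Figure D1:**
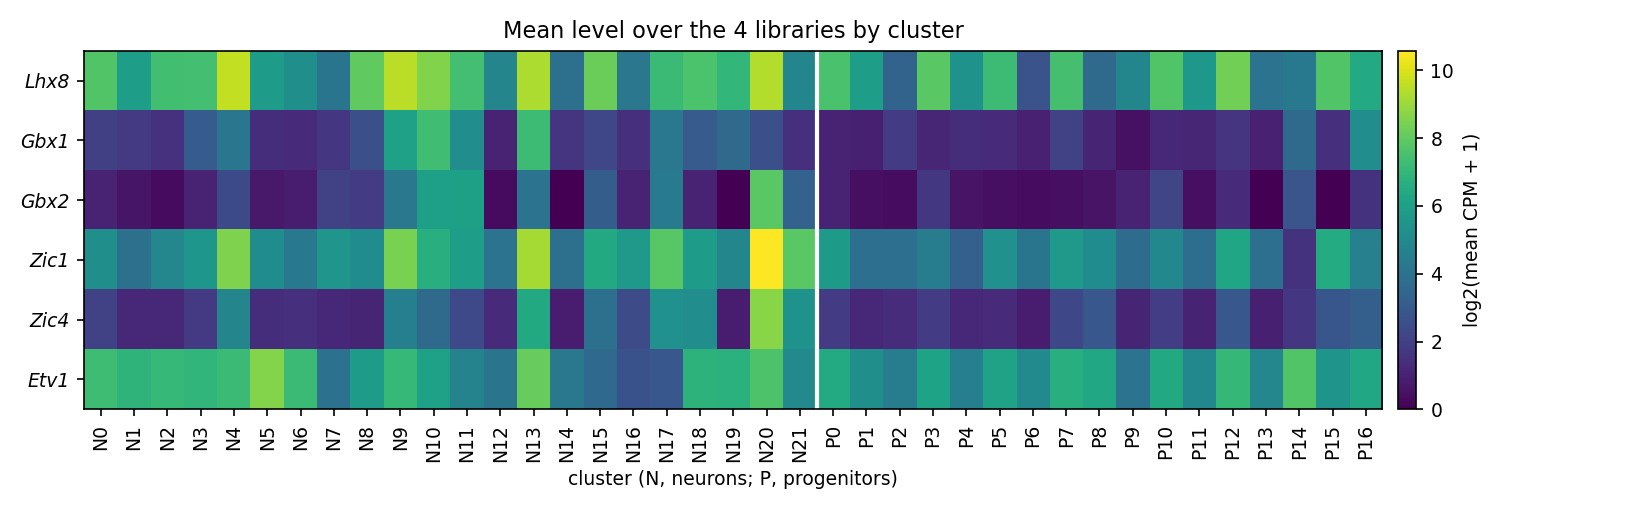
Level of each member (rows) in the 22 neuron and 17 progenitor clusters (columns), as log2 of the CPM averaged over the 4 libraries plus 1, with a white line between neurons and progenitors. Zic1, Zic4 and Gbx2 were highest in N20, Gbx1 in N10 and N13, Lhx8 in N4, N9, N20 and N13, and Etv1 in N5.

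All 6 members were higher in neurons than in progenitors in all 4 libraries. The difference of log2(CPM + 1) between neurons and progenitors was 3.06 ± 0.32 for Gbx1 and 2.59 ± 0.39 for Gbx2 (SD, n = 4 libraries). It was 2.15 ± 0.22 for Zic4 and 2.03 ± 0.19 for Zic1. The smallest differences were those of Lhx8, at 1.27 ± 0.17, and Etv1, at 1.19 ± 0.10. In progenitors Gbx2 was at 0.428 to 1.27 CPM and Gbx1 at 1.07 to 1.87 CPM, near the added 1. This narrows their differences, Gbx2's most, so the order of Gbx1 and Gbx2 is not read. Neurons held 91.8% of Gbx1 UMIs, 91.6% of Gbx2, 84.1% of Zic4, 78.4% of Zic1, 67.6% of Lhx8 and 66.6% of Etv1. The class split has a limit. Among their leading genes, progenitor clusters P3 and P9 and neuron clusters N8, N12 and N19 had more markers of the other class than of their own. P3 held 4.35% of Lhx8 UMIs. Free RNA was read from barcodes with under 100 UMIs. There, Lhx8 was at 112 to 132 CPM, Zic1 at 41.4 to 71.4 CPM, Etv1 at 36.7 to 60.7 CPM, Zic4 at 2.78 to 12.6 CPM, Gbx1 at 5.91, 9.71, 14.4 and 23.6 CPM and Gbx2 at 1.48, 2.08, 8.87 and 7.87 CPM. In 152 erythroid cells, which should hold none of them, with a median of 11429.5 UMIs, at most 2 cells had a UMI of any member once each cell was thinned to 3000 UMIs, and a count of 0 allows up to 1.97%. Against that, 29.5%, 27.3%, 31.6% and 37.9% of neurons had a UMI of Lhx8 after the same thinning, from a median of 5924, 8184, 5493 and 5508 UMIs. For Zic1 these shares were 14.45%, 13.53%, 13.42% and 19.98%. For Gbx2 they were 1.26%, 1.46%, 1.85% and 3.02%. All but the share of WT replicate 2 (3.02%) lay below the 1.97% that the erythroid cells allow. Single cells positive for Gbx2 are therefore not read as expression outside the clusters named above.

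Neurons with a UMI of a member held UMIs of the other members at higher shares than neurons without it, apart from Etv1 with Gbx1 and Gbx2, where the shares were close after thinning. The shares are means over the 4 libraries, in cells thinned to 3000 UMIs, and describe cells that also share a cluster. Zic1 was detected in 78.9% of neurons with Zic4 (72.3% to 84.4% over libraries) and in 13.6% of those without. Lhx8 was detected in 66.7% of neurons with Zic1 and in 25.4% of those without, and in 67.5% of neurons with Gbx1 against 30.1% of the others. Gbx1 was detected in 25.04% of neurons with Gbx2 (16.4% to 35.7%) and in 3.77% of those without. Etv1 was detected in 22.9% of neurons with Gbx1 and 22.7% of those without, and in 20.8% with Gbx2 against 22.8% without, so these shares were nearly equal. At 2 or more UMIs without thinning they were not, with Etv1 in 29.8% of neurons with Gbx2 against 17.9% of those without, and in 24.3% with Gbx1 against 17.9%. Isl1, the LIM factor of cholinergic and striatal lineages, was found in 5.52% of neurons with Lhx8 and 14.2% of those without, but in 23.3% of neurons with Zic4 and 11.2% of those without. Slc18a3 was detected in 7.23% of neurons with Zic4 and in 0.107% of those without. Between 42.1% and 52.4% of the neurons of a library had no UMI of any member after thinning, and 5.17% to 9.001% had UMIs of 3 or more.

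**Figure D2:**
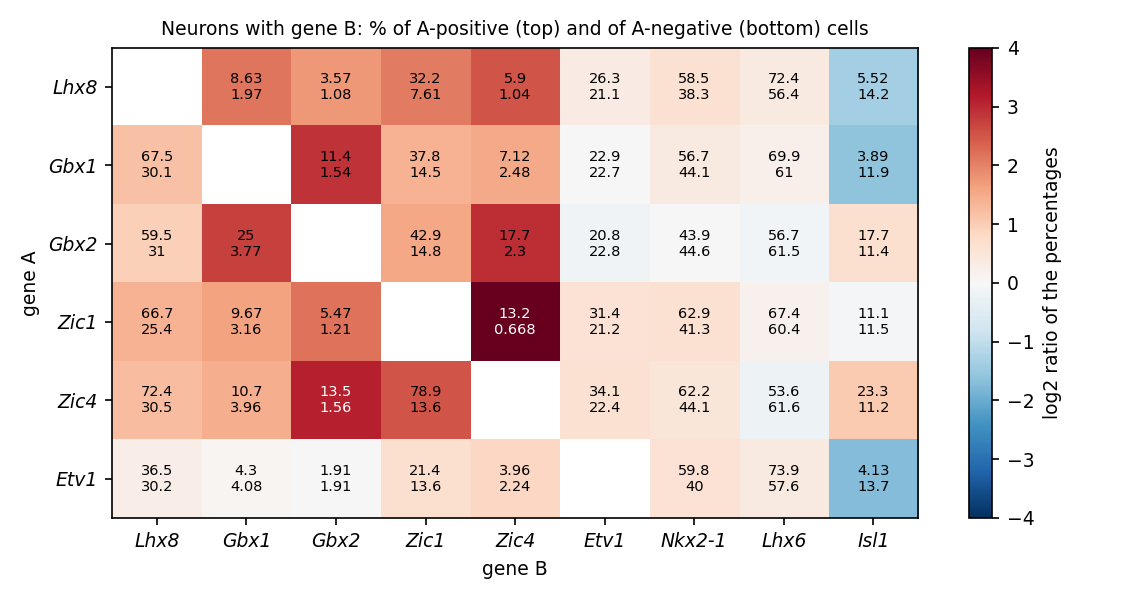
Percent of neurons with gene B (columns) among cells with gene A (rows, top number) and without it (bottom number), as means over the 4 libraries in cells thinned to 3000 UMIs, with the log2 ratio of the percentages as colour. Among the columns drawn, the strongest colour is that of Zic4 in neurons with Zic1 (13.2% against 0.668%), the Etv1 row is close to white for Gbx1 and Gbx2, and Isl1 is blue in the rows of Lhx8, Gbx1 and Etv1.

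In neurons, Gbx2 was lower in the libraries labelled null, of which replicate 2 held more St18 than either WT library, and the other members did not pass the test. Gbx2 was at 6.32, 6.91, 12.99 and 16.2 CPM, from 136, 130, 182 and 208 UMIs, so both libraries labelled null lay below both WT libraries. Gbx2 in free RNA was also lower in both libraries labelled null (1.48 and 2.08 against 8.87 and 7.87 CPM, from 3, 6, 16 and 15 UMIs). So were Gbx1 (5.91 and 9.71 against 14.4 and 23.6 CPM), Zic1 (41.4 and 43.7 against 64.9 and 71.4 CPM), Lhx8 and Zic4, while Etv1 in free RNA was higher in both. The part of free RNA in the differences between neurons was not tested. For Gbx2 the null/WT log2 ratio stood at −1.29 ± 0.17 (SE, adjusted p = 0.0377 by edgeR's quasi-likelihood test, as for all such values). This call was known when the gene was chosen. It was 1 of 10 genes called among 13581, which is 0.0736%, and lower genes made up 0.0442%. Other called genes included Gm2000, Gm43727, Gm35082, Gm17750, Sst, Rpl9-ps6, Tsix and Xist. Gbx1 was at 15.6, 16.2, 22.9 and 29.8 CPM, also without overlap, with a null/WT log2 ratio of −0.88 ± 0.15 (SE, adjusted p = 0.0655). Lhx8 was at 214, 185, 240 and 294 CPM, again without overlap, with a null/WT log2 ratio of −0.56 ± 0.15 (SE, adjusted p = 0.137). Groups that did not overlap with null lower were found for 13.4% of all genes tested, and for 3 of the 6 members.

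Zic1 and Zic4 did not pass the test, and their WT libraries lay far apart. Zic1 was at 99.8, 100.1, 94.4 and 161 CPM, with WT replicate 1 the lowest and WT replicate 2 the highest of the 4. Its null/WT log2 ratio was −0.50 ± 0.20 (SE, adjusted p = 0.258). Zic4 was at 11.8, 8.93, 10.3 and 23.4 CPM, with WT replicate 1 between the libraries labelled null, and a null/WT log2 ratio of −0.82 ± 0.32 (SE, adjusted p = 0.241). Without WT replicate 2 these changes were −0.08 and −0.14, so they rest on that library. Without WT replicate 1 they were −0.83 and −1.30. Etv1 was at 112, 164, 114 and 120 CPM, where the library labelled null replicate 2 was highest and the others were close together. Its null/WT log2 ratio was 0.08 ± 0.15 (SE, adjusted p = 0.821). Without null replicate 2 it was −0.16 and without null replicate 1 it was 0.31. At an unadjusted p under 0.05, 5 of the 6 members were lower, against 10.0% of all genes. With TMM normalization left out, the median of all genes moved by 0.14 on the log2 scale, and the log2 fold changes of these 5 members kept their sign.

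**Figure D3:**
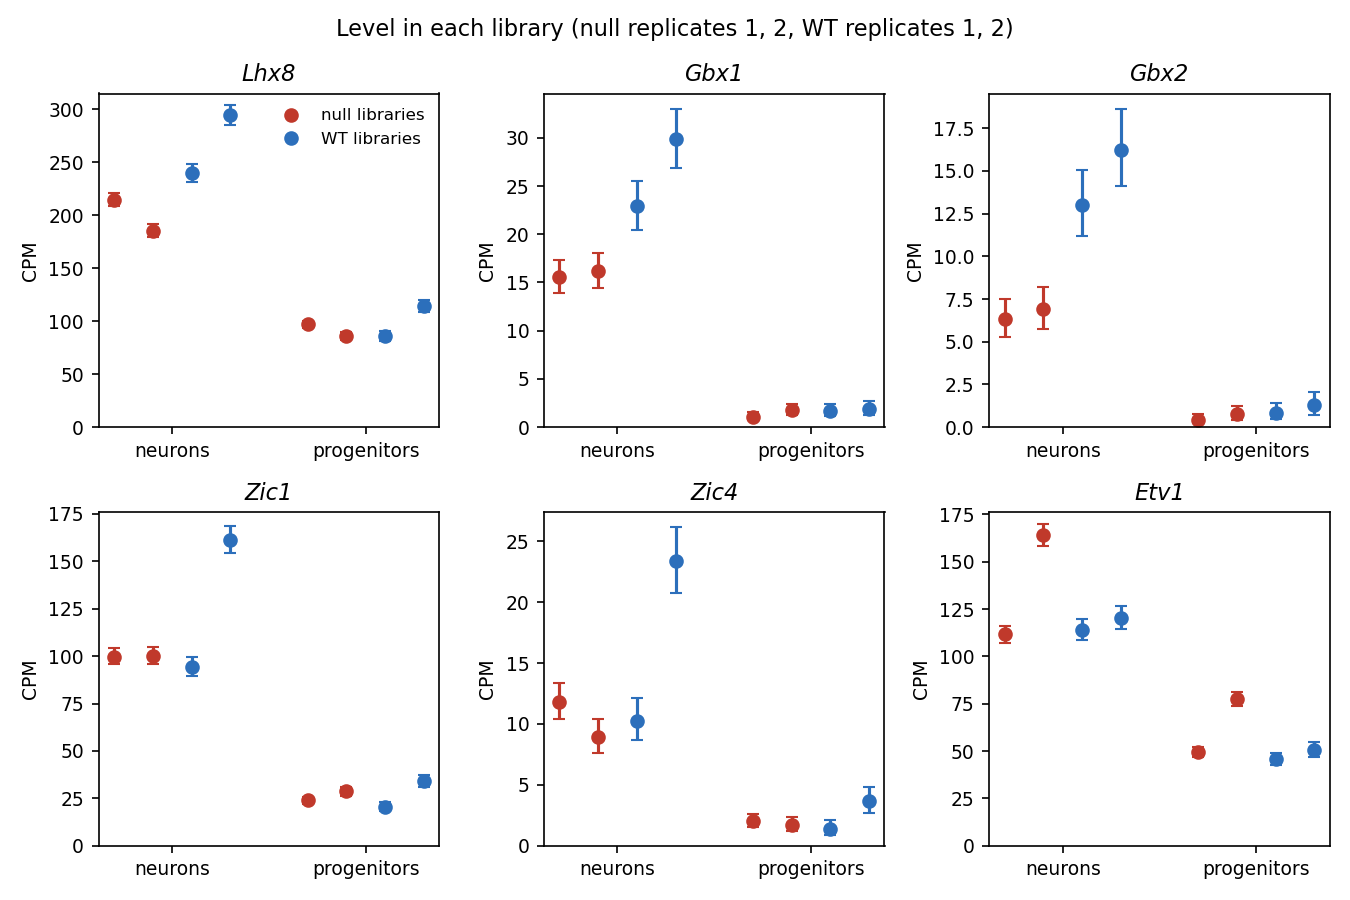
Level of each member in neurons and progenitors of each library in CPM, with exact 95% Poisson intervals that cover counting error only (null red, WT blue, replicates 1 and 2 from left to right). In neurons, both null points of Lhx8, Gbx1 and Gbx2 lie below both WT points, the Zic1 and Zic4 points of WT replicate 2 stand alone (161 and 23.4 CPM), and Etv1 is highest in null replicate 2 (164 CPM).

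The calls depended on which cells and libraries entered. Without each library in turn, Gbx2 kept its sign, with log2 fold changes from −1.43 to −1.14. Such fits leave 1 library in a group and called more genes than the main fit (closing section), so only their log2 fold changes are given here. Gbx2 lost the call in male cells (−1.78, adjusted p = 0.145). It also lost it when every library gave the same number of cells of each cluster (1267 neurons a library), where the null/WT log2 ratio was −0.52 ± 0.17 (SE, adjusted p = 0.254). Under that draw Gbx1 was at −0.25, Lhx8 at −0.20, Zic4 at −0.17, Zic1 at −0.07 and Etv1 at 0.05. Without null replicate 1, null replicate 2, WT replicate 1 and WT replicate 2 in turn, Gbx1 was at −0.88, −0.85, −1.05 and −0.70. It passed the test with library totals alone (−0.73, adjusted p = 0.0337) and with no filter on low counts (−0.87, adjusted p = 0.0094). It also passed without clusters of other lineages or led by markers of the other class (−0.76, adjusted p = 0.0244). Lhx8 ranged from −0.70 (without null replicate 1) to −0.41 over the libraries left out, and passed the test with DESeq2 (−0.56, adjusted p = 0.0124). Each of these settings also called more genes than the main fit (closing section). Within the library labelled null replicate 2, for which St18 differed between male and female cells above, members were also read by sex. Gbx2 was at 1.28 CPM in 434 male neurons (5 UMIs) and at 9.06 CPM in 1363 female neurons. Gbx1 was at 3.58 and 20.2 CPM, Zic1 at 59.9 and 115 CPM, and Zic4 at 3.58 and 10.4 CPM. Lhx8, at 166 and 197 CPM, and Etv1, at 187 and 160 CPM, were closer. In the library labelled null replicate 1, Gbx2 was at 6.01 CPM in male and 4.61 CPM in female neurons. There, Gbx1 was at 15.7 and 15.7 CPM, Zic1 at 105 and 93.9 CPM, and Zic4 at 13.6 and 9.36 CPM. The part of sex or of the embryos in the pool in these differences was not tested.

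**Figure D4:**
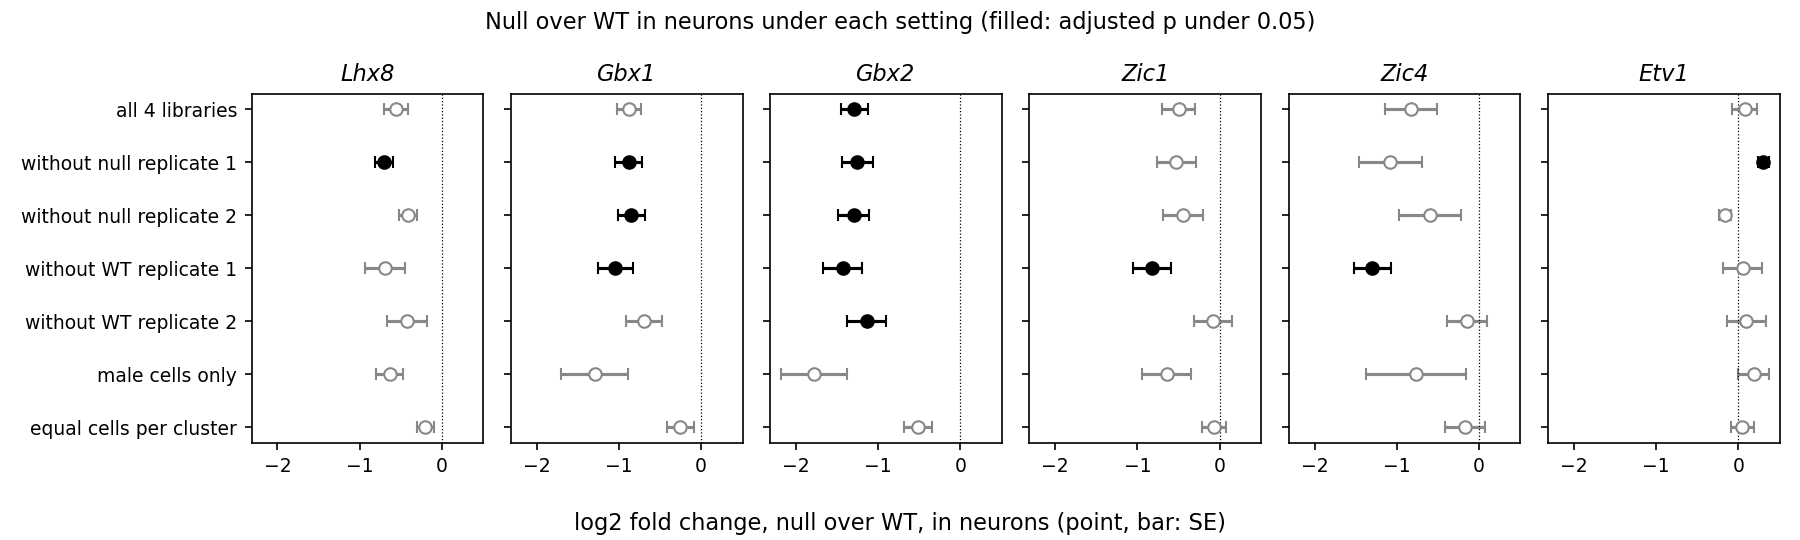
Log2 fold change of null over WT in neurons for each member (point, with its SE as bar), from all 4 libraries, without each library, in male cells and with equal cells of each cluster, filled where the adjusted p is under 0.05. Gbx2 is filled in all settings but the last 2 rows. Rows without a library leave 1 library in a group, and such fits called more genes than the main fit. All members move toward 0 with equal cells per cluster, except Etv1, which is near 0 there and with all 4 libraries (0.05 and 0.08).

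In progenitors none of the 6 members passed the test, where 4 of 13595 genes did (0.0294%: Gm2000, Hist1h4c, Tsix and Xist). Gbx2 was at 0.428, 0.772, 0.841 and 1.27 CPM, from 12, 16, 14 and 17 UMIs, with a log2 fold change of −1.02 (adjusted p = 0.271). Lhx8 was at 96.9, 85.9, 86.1 and 114 CPM, where the groups overlapped, with a log2 fold change of −0.32 (adjusted p = 0.362). The log2 fold changes were −0.56 for Gbx1, −0.57 for Zic4, −0.25 for Zic1 and 0.19 for Etv1, with adjusted p from 0.384 to 0.579. Without null replicate 1, Lhx8 was at −0.48 and Etv1 at 0.43. Over the libraries left out, Lhx8 ranged from −0.51 to −0.10. At an unadjusted p under 0.05, 1 of the 6 was lower, against 9.86% of all genes.

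Within a cluster the genotypes were compared where a member was highest, in N4, N10 and N5. N20 had under 20 cells in some libraries and was not tested. In N4, Etv1 was higher in the libraries labelled null, with 97.4 and 114 CPM in WT and 165 and 212 CPM in null, and a null/WT log2 ratio of 0.69 ± 0.17 (SE, adjusted p = 0.0362, edgeR's quasi-likelihood test). It was 1 of 128 genes called of 8526 (1.50%), of which 20 were higher and 108 lower in null. The lower genes included 26 of 92 ribosomal protein genes and 27 of 90 respiratory chain genes tested, by symbols chosen after the values were seen, and none of either kind was called higher. The part of this shift in the Etv1 call was not tested. Without WT replicate 1 (0.58, adjusted p = 0.692) or WT replicate 2 (0.81, adjusted p = 0.749) it was not called. Zic1 in N4 was at 407, 491, 246 and 341 CPM without overlap, with a log2 fold change of 0.48 (adjusted p = 0.140), and Lhx8 was at 0.04 (adjusted p = 0.940). Zic1 in N4 passed the test with library totals alone (0.61, adjusted p = 0.0364). It was at 0.59 without null replicate 1, 0.38 without null replicate 2, 0.26 without WT replicate 1 and 0.74 without WT replicate 2. Zic4 in N4 had a log2 fold change of 0.70 (adjusted p = 0.354). It ranged from 0.093 to 1.61 over the libraries left out, lowest without WT replicate 1 and highest without WT replicate 2. In N10, Lhx8 was lower in null, at 348 and 289 CPM against 478 and 424 CPM in WT. The null/WT log2 ratio was −0.58 ± 0.16 (SE, adjusted p = 0.0456), 1 of 113 calls of 7460 (1.51%), of which 36 were higher and 77 lower, with 20 ribosomal protein and 19 respiratory chain genes among the lower ones. The call was lost with library totals alone (adjusted p = 0.105), without null replicate 2 (0.0670), without WT replicate 1 (0.799) and without WT replicate 2 (0.344). Gbx1, which was highest in N10 and N13, and Gbx2 had log2 fold changes in N10 of 0.05 (adjusted p = 0.938) and −0.26 (adjusted p = 0.723). In N5, Etv1 had a log2 fold change of −0.23 (adjusted p = 0.743) and Lhx8 one of −0.79 ± 0.24 (SE, adjusted p = 0.257), where 3 of 8679 genes were called (0.0346%).

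No neuron cluster passed the test for a difference in its share of the neurons, and the clusters in which members were high are given by their values. N10 made up 2.71%, 2.11%, 4.16% and 6.98% of the neurons, a log2 ratio of null over WT of −1.20 (SE 0.40, adjusted p = 0.161). N20 made up 0.421%, 0.376%, 0.782% and 1.49%, a log2 ratio of −1.48 (SE 0.47, adjusted p = 0.161). N9 followed at 3.85%, 3.05%, 4.98% and 6.39% (−0.72, adjusted p = 0.267). N4 made up 7.89%, 5.73%, 8.60% and 8.69%. In these 4 clusters both libraries labelled null lay below both WT libraries, as in 6 of all 22 neuron clusters (27.3%). N4 (−0.34), N13 (−0.30) and N11 (−0.07) had adjusted p of 0.719, 0.878 and 0.924. None of 22 clusters was called (0.00%), and 5 had an unadjusted p under 0.05 (22.7%). The lowest adjusted p by edgeR's quasi-likelihood test were those of N3 (−2.30, 0.0562), N19 (1.73, 0.0562) and N2 (2.08, 0.0685). In cells with at least 5000 UMIs the same test called N3 (−2.80, adjusted p = 0.0016), N2 (1.84, adjusted p = 0.0260) and N20 (−2.32, adjusted p = 0.0260).

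**Figure D5:**
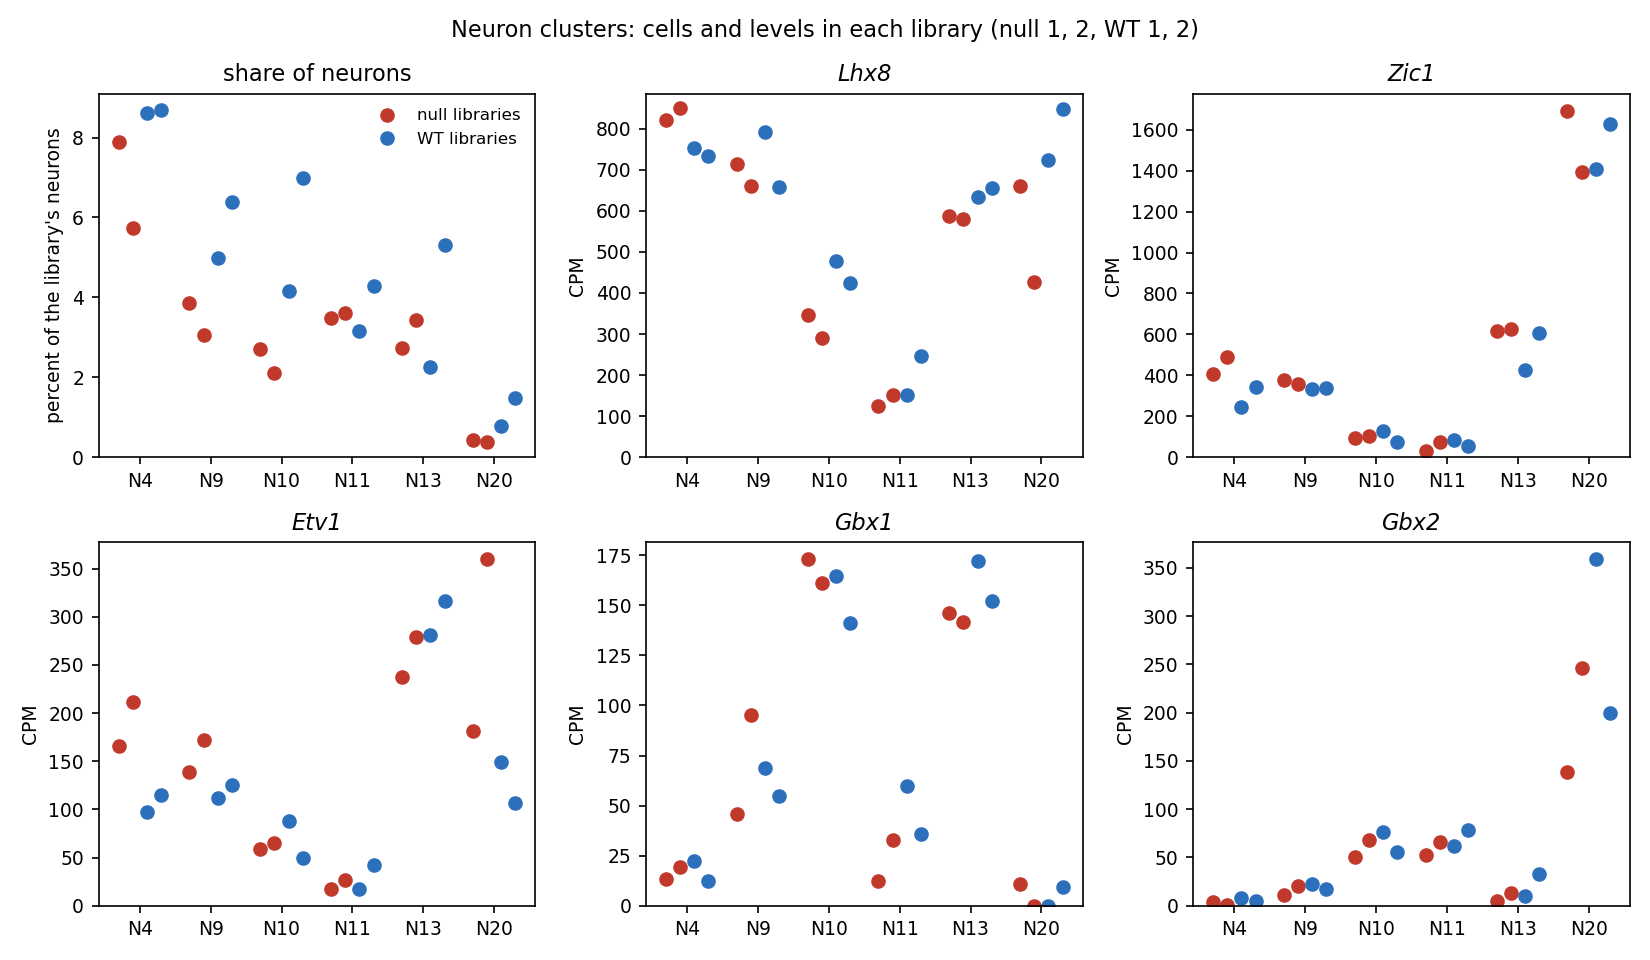
Percent of each library's neurons in 6 clusters (first panel) and level in CPM of 5 members in them, with 1 point per library (null red, WT blue, replicates 1 and 2 from left to right). The shares of N4, N9, N10 and N20 are lower in both null libraries. Gbx1 and Gbx2 in N10 overlap between the genotypes (141 to 173 and 50.8 to 76.4 CPM). Both null points lie below both WT points for Gbx1 in N11 (12.4 and 33.0 against 59.8 and 35.6 CPM). They do so in N13 as well (146 and 142 against 172 and 152 CPM). The same holds for Gbx2 in N4 (3.28 and 1.03 against 7.75 and 4.81 CPM), from 5, 1, 9 and 5 UMIs. These Gbx2 levels lie near those of free RNA. It also holds for Lhx8 in N10, N13 and N20 and for Etv1 in N13. Both null points lie above both WT points for Lhx8 in N4, Zic1 in N4, N9 and N13, and Etv1 in N4, N9 and N20. The share of all genes without overlap within a cluster was not computed.

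None of the listed relatives and cofactors of the members was called. Of 17 genes 15 were tested in neurons by edgeR's quasi-likelihood test, with 1 higher and 2 lower at an unadjusted p under 0.05 (7.37% and 10.0% of all genes), and a median log2 fold change of −0.00, the same as that of all genes. The most abundant were Lhx6 (mean 406 CPM), Lmo4 (206 CPM) and Lmo3 (129 CPM). Of 14 pallidal and cholinergic genes 12 were tested and none was called, with 2 lower at an unadjusted p and a median of −0.21. The most abundant were Bcl11b (998 CPM), Sox6 (332 CPM) and Nkx2-1 (288 CPM). Of 9 fibroblast growth factor readouts 6 were tested and none was called at either threshold, with a median of 0.11, and the most abundant were Spry2 (7.83 CPM), Il17rd (7.16 CPM) and Etv5 (3.69 CPM). In progenitors 11, 8 and 6 genes of these lists were tested, none was called, and the medians were 0.01, −0.04 and 0.14. At an unadjusted p under 0.05, 0, 0 and 1 of them passed, against 17.2% of all genes. DESeq2 gave 6, 5 and 0 genes of the lists an adjusted p in neurons and 6, 3 and 0 in progenitors, of which none passed, with 3, 2 and 0 in neurons and 0 in progenitors at an unadjusted p under 0.05, against 11.6% and 11.2% of all genes.

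Likeness of profile was measured as Pearson's r of log2(CPM + 1) across the 39 clusters, among 13323 genes. The clusters share libraries and differ in depth, so r is a description. Lhx8 was most like AI606473 (r = 0.87), Tle5 (0.79) and Cfl2 (0.79). AI606473 was at 82.5 CPM in N4, 104 CPM in N9 and 113 CPM in N13, and over all neurons at 18.6, 20.6, 25.7 and 34.4 CPM, without overlap of the genotypes, with a log2 fold change of −0.77 (adjusted p = 0.0810). Gbx1 was most like Lypd6b (0.83), Gpr158 (0.78) and Pde1a (0.75), a calcium-dependent phosphodiesterase gene at 19.5, 20.8, 29.5 and 40.3 CPM in neurons, with a log2 fold change of −0.94 (adjusted p = 0.0655). Gbx2 was most like its overlapping neighbour D130058E05Rik (0.92), then Stum (0.83) and Galnt18 (0.82). D130058E05Rik was at 1.49, 0.956, 2.07 and 2.26 CPM in neurons. Zic1 was most like Zic4 (0.87), Slc10a4 (0.86) and AI606473 (0.83), and Zic4 most like Zic2 (0.89), Zic1 and Sphkap (0.81). Etv1 was most like Zfp536 (0.84), Kiz (0.82) and Tcf4 (0.77), genes with no neighbour relation to it. Between members, r was 0.67 for Lhx8 with Zic1, 0.65 for Gbx1 with Gbx2, 0.74 for Gbx2 with Zic4 and 0.09 for Gbx2 with Etv1.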

How the data were processed

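The members, gene lists and tests were chosen with earlier results of these data known. The measurement was droplet single-cell RNA sequencing of the e14.5 mouse MGE, in 2 libraries per genotype. The authors aligned and counted reads with Cell Ranger 5.0.1 on GRCm38, per the labels, and deposited for each library a matrix of raw UMI counts (genes by all barcodes), without normalization or cell calling. The file headers name another Cell Ranger version. The labels carry no replicate numbers, so these follow sample order.

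Cells needed at least 3000 UMIs, 200 genes and at most 10% mitochondrial UMIs. Scrublet (scanpy 1.11.5) called at most 0.0665% of a library by its own threshold, so the highest scores were removed instead, at 0.8% per 1000 cells. Cells were clustered in Seurat 5.3.0 (R 4.3.3, Matrix 1.6.5) on 2000 variable genes without the 11 members and relatives, with 49 principal components and a resolution of 1.4. Clusters were first split into neurons and progenitors by markers, erythroid, microglia and oligodendrocyte precursor clusters were left out, and each class was clustered again. A name needed 3 markers in 25% of cells at a log2 fold of 1.

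Counts were summed per library and class or cluster, and the genotypes were compared in a single fit of the 4 libraries with edgeR 4.0.16 (TMM, filterByExpr, quasi-likelihood F test, Benjamini-Hochberg over all genes, two-sided, threshold 0.05). With 2 libraries against 2, an exact permutation test cannot go below 0.333. Cells per cluster were tested with the same tool. DESeq2 1.42.0 was an alternative, with the others in the closing section. Levels are CPM, intervals are exact Poisson at 95%, an absent gene is taken as under 3 counts, and both cover counting error only. The script for the tests recovered known changes in simulated counts. Named genes were the 6 members, genes of a list past the threshold, the 3 most abundant genes of each list and the 3 genes most like each member, among genes with at least 5 CPM in some cluster. Levels, sequences and figures used Python 3.11.15 (pandas 2.3.3, scipy 1.17.1, numpy 2.4.6, matplotlib 3.10.9). Some results are not reported here.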

Additional observations from a re-analysis of the deposited data

Results flagged for a closer look

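Lhx8 was higher in null in N4 and lower in null over all neurons, in N5 and in N10, which was not tested as a difference. The ratio of mean CPM of null over WT was 1.12 in N4, against 0.749 over all neurons, 0.619 in N5 and 0.707 in N10, and in N4 every null library lay above every WT library while in the other 3 every null library lay below. After TMM normalization the log2 fold change in N4 was 0.04, and with library totals alone it was 0.17.

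UMIs of some members were also counted in cells left out of the comparisons. In the microglia cluster (99 cells, in which a count of 0 allows up to 3.03%), Lhx8 had a UMI in 4.04%, Zic1 in 11.1%, Zic4 in 7.07% and Etv1 in 7.07% of thinned cells, against 0.658%, 1.32%, 0.658% and 0.658% of erythroid cells. Their levels in microglia were 13.6, 84.3, 17.3 and 36.1 CPM, of which those of Lhx8 and Etv1 lay below the free RNA of every library and those of Zic1 and Zic4 above it. Expression in these cells is not read from the shares, and the leading genes of that cluster include the pericyte gene Rgs5. In the oligodendrocyte precursor cluster (33 cells, with a limit of 9.09%), Etv1 had a UMI in 30.3% of cells, at 139 CPM from 54 UMIs.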

How the results depend on the processing

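In neurons 10 genes were called. Alternatives gave 313 (DESeq2), 286 (library totals), 244 (no filter), 16 (cells of at least 5000 UMIs), 1 (male cells only), 4 (equal cells of each cluster), 204 (without clusters of other lineages) and 70 to 2763 without each library in turn. In progenitors 4 became 322, 127, 893, 0 (male cells) and 11 (equal cells) under the same names, and 66 to 4078 without each library. In N4 128 became 2 to 984, in N10 113 became 13 to 572, and in N5 3 became 26 with DESeq2, 5 with library totals and 5 to 186 without each library. The cause of these shifts was not tested. The setting without clusters of other lineages also left out clusters led by markers of the other class. Lone libraries left in a group are assumed to vary like the other group. In cells of at least 5000 UMIs, 3 cluster shares were called against 0.

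Some log2 ratios changed sign without 1 library. Their ranges over the libraries left out were −0.16 to 0.31 (Etv1, neurons), −0.57 to 0.15 (Zic1), −1.15 to 0.25 (Zic4) and −0.085 to 0.43 (Etv1) in progenitors, −0.63 to 0.21 (Gbx1) in N4, −0.088 to 0.14 (Gbx1), −0.46 to 0.26 (Zic1) and −0.63 to 0.20 (Etv1) in N10, −0.71 to 0.059 (Zic1) and −0.48 to 0.038 (Etv1) in N5, and −0.79 to 0.44 and −0.27 to 0.16 for the shares of N13 and N11. The sign changed without WT replicate 2 for Zic1 and Zic4 in progenitors, Gbx1 in N10, Zic1 in N5 and the shares of N13 and N11, without WT replicate 1 for Gbx1 in N4, Zic1 and Etv1 in N10 and Etv1 in N5, and without null replicate 2 for Etv1 in neurons and in progenitors. Gbx1 in N10 was also reversed, at −0.080 without null replicate 1, and Zic1 in N10 at 0.016 with library totals. None of these reversed values was called. A mean over cells moved the neuron minus progenitor difference to 1.09 for Lhx8 and 1.08 for Etv1. Without thinning, Zic1 was found in 84.2% of Zic4 neurons (94.2% at 2 or more UMIs), Lhx8 in 75.6% (78.6%) of Zic1 neurons, Etv1 in 38.3% (23.2%) of Lhx8 neurons and Gbx1 in 34.8% of Gbx2 neurons. DESeq2 gave no adjusted p for Gbx1, Gbx2 and Zic4 in neurons. No paired analysis was possible because the labels carry no replicate numbers. Gbx2 rested on 130 to 208 UMIs a library in neurons, which limits its precision.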
